A study of Mus musculus with 16 samples.

Results

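Rrad, Rem1 and Gem encode RGK GTPases, small GTP-binding proteins, and Cacna1c, Cacnb2, Cacna2d1, Ryr2, Atp2a2, Pln and Casq2 encode the L-type calcium channel and the calcium release and uptake proteins of heart muscle. These 10 genes, of 18346 in the deposited count table, were selected from earlier results of the same data, in which Rrad was the leading gene, by matching their symbols. All 10 passed the filter on low counts, as did 13373 genes in all. They were followed through 16 hearts in 4 groups of 4: Armh4 knockout (KO) mice aged 25 months, wild-type (WT) mice aged 25 months, KO mice aged 8 weeks and WT mice aged 8 weeks. The knockout was systemic, so Armh4 was deleted in every tissue and not in heart muscle alone, and the mice were C57BL/6J, kept under the same housing and diet with no drug treatment named. RNA was read in bulk from the heart of 1 animal per library, and each heart is named below by its group and animal number.

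In heart muscle each beat starts with calcium entry through the L-type channel, whose pore is formed by the Cacna1c product and whose surface level and gating depend on the auxiliary β and α2δ subunits made from Cacnb2 and Cacna2d1. The entering calcium opens the ryanodine receptor Ryr2, calcium stored on the luminal buffer Casq2 is released from the sarcoplasmic reticulum, and the pump Atp2a2, held back by phospholamban (Pln), returns it. RGK proteins bind the β subunit and inhibit the channel, and phosphorylation of the Rrad product by protein kinase A is known to relieve that inhibition during β-adrenergic stimulation.

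Total counts lay between 11456500 and 13298700 per heart. Armh4 itself had 0.0825 to 1.68 CPM (read counts scaled to library size, here by the TMM method) in the 8 KO hearts, against 12.7 to 20.3 CPM in the 8 WT hearts, so the genotype labels matched the targeted gene in every heart. The summed level of 9 ventricular cardiomyocyte markers was 73133 to 81883 CPM in aged KO hearts, 70941 to 88814 in aged WT hearts, 85575 to 100376 in young KO hearts and 87518 to 98786 in young WT hearts. The summed level of 7 atrial markers was 113 to 589 CPM in aged KO hearts, 108 to 442 in aged WT hearts, 214 to 639 in young KO hearts and 195 to 421 in young WT hearts. Nppa alone had 56.2 to 432 CPM over all 16 hearts, and Bmp10 was at 0 in aged KO and young WT hearts. Myl7, the atrial light chain gene, had 39.4, 20.0, 3.12 and 0.323 CPM in aged KO hearts, against 0, 0.238, 0.153 and 0.243 CPM in aged WT hearts, without overlap. In young hearts Myl7 had 12.2, 0, 66.2 and 15.2 CPM in KO animals and 0.563, 9.57, 0.172 and 4.03 CPM in WT animals, with overlap. Of the 6 atrial markers tested, 6 had a positive log2 difference between KO and WT hearts at both ages (medians of 2.01 in aged and 1.121 in young hearts), and 0 passed edgeR's test. Their part in the differences between KO and WT hearts described here was not tested. In bulk RNA, fewer cells of a type and less RNA per cell cannot be told apart.

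Rrad, the most abundant RGK gene in these hearts, was higher in KO than in WT hearts at both ages. It had 189, 197, 216 and 164 CPM in aged KO hearts, against 143, 153, 152 and 149.9 CPM in aged WT hearts. At 8 weeks it had 183, 201, 147 and 171 CPM in KO hearts, against 95.6, 79.4, 88.8 and 116 CPM in WT hearts. The lowest KO heart lay above the highest WT heart at each age, and the 4 young WT hearts were the lowest of all 16.

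As differences on the log2 scale, Rrad was 0.36 ± 0.11 (SE) higher in aged KO than in aged WT hearts, a 1.28-fold difference with a 95% interval of 1.09 to 1.51. Between young KO and young WT hearts the difference was 0.89 ± 0.11, a 1.85-fold difference with an interval of 1.57 to 2.18. Because Rrad was chosen with these values known, its differences are a description and carry no p.

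Along the age axis, aged WT hearts averaged 149 ± 4.39 CPM of Rrad and young WT hearts 94.9 ± 15.4 CPM (SD, n = 4 each), without overlap and with a log2 difference of 0.65 ± 0.11. Aged KO hearts averaged 192 ± 21.7 CPM and young KO hearts 176 ± 22.6 CPM (SD, n = 4 each). Their ranges overlapped, and the log2 difference was 0.13 ± 0.11. The KO ageing difference less the WT one was -0.53 ± 0.16. Leaving out any 1 heart kept the young genotype difference between 0.82 and 1.01, the aged one between 0.30 and 0.43, and the WT ageing difference between 0.59 and 0.78. Like the differences, these ranges describe values known when Rrad was chosen and lend them no support.

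**Figure D1:**
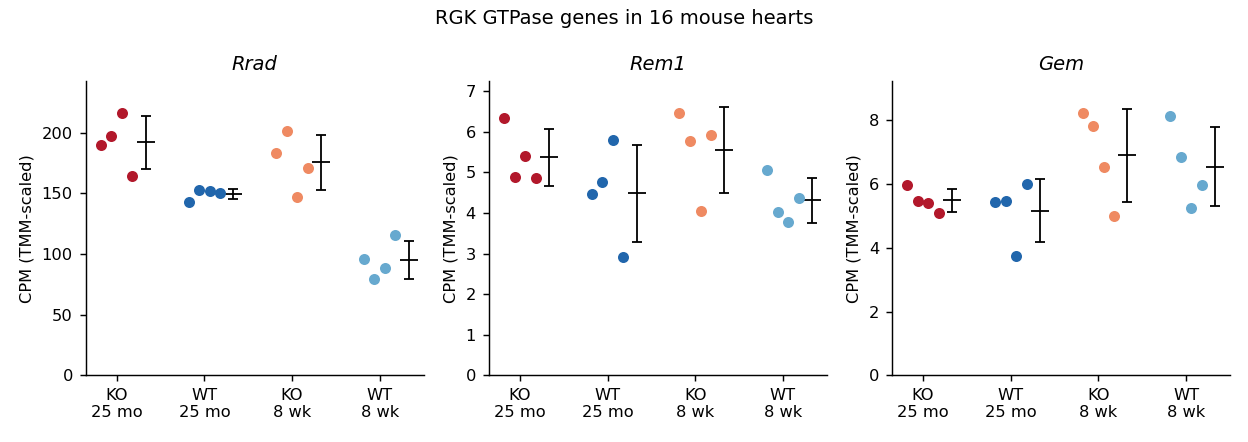
CPM of Rrad, Rem1 and Gem (vertical axes, each from 0) in every heart of the 4 groups, with the mean and SD of 4 hearts beside the points. For Rrad the 4 young WT hearts lie lowest, between 79.4 and 116 CPM, while the points of Rem1 and Gem overlap between all groups.

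Gem is known as a gene that mitogens induce in T cells, and 12 immediate early genes, which respond quickly to stimulation and handling, were set beside the RGK genes. Their summed level was 233 to 423 CPM in aged KO hearts and 192 to 256 in aged WT hearts, and 303 to 479 CPM in young KO hearts and 306 to 337 in young WT hearts. Of the 12, log2 differences were above 0 for 12 between aged KO and WT hearts and for 11 between young KO and WT hearts, with 0 past the threshold in either. Between aged and young WT hearts 2 of the 12 fell and 0 rose, and between aged and young KO hearts 2 fell and 1 rose. Their part in the Rrad levels was not tested.

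Rem1 and Gem encode RGK proteins that, like the Rrad product, bind channel β subunits. Both were far less abundant, at 36 to 83 and 49 to 101 counts per heart, and their precision is limited accordingly. On the length-scaled FPKM scale the median over 16 hearts was 123 for Rrad, 3.75 for Rem1 and 2.86 for Gem.

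Rem1 averaged 5.37 ± 0.697 CPM in aged KO hearts and 4.49 ± 1.19 CPM in aged WT hearts, and 5.55 ± 1.05 CPM in young KO hearts and 4.31 ± 0.558 CPM in young WT hearts (SD, n = 4 each). It did not pass the test in any comparison. Its log2 difference between young KO and WT hearts was 0.36, with a 95% interval of -0.04 to 0.76 and an adjusted p of 0.496 in edgeR's quasi-likelihood test. Gem averaged 5.48 ± 0.360 CPM in aged KO hearts and 5.16 ± 0.981 CPM in aged WT hearts, and 6.89 ± 1.46 CPM in young KO hearts and 6.54 ± 1.24 CPM in young WT hearts (SD, n = 4 each). Its log2 differences with age were -0.35 in WT hearts and -0.33 in KO hearts, with adjusted p of 0.172 and 0.289 in the same test. Rem2, the fourth RGK gene, had 0 counts in 13 of the 16 hearts and at most 3 in any, and was not tested.

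Cacnb2, the β subunit that RGK proteins bind, was lower in aged than in young WT hearts, a difference that passed the test, and higher in aged than in young KO hearts, a difference that did not. It had 112, 111, 132 and 108 CPM in aged KO hearts, against 98.5, 95.5, 98.6 and 84.0 CPM in aged WT hearts. In young hearts it had 90.4, 96.9, 104 and 111 CPM in KO animals, against 113.8, 102, 149 and 125.1 CPM in WT animals. Aged WT hearts did not overlap with young WT hearts or with aged KO hearts, whereas the young genotypes overlapped.

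Cacnb2 fell in aged relative to young WT hearts by 0.38 on the log2 scale (SE 0.10), a 0.769-fold level (95% interval 0.662 to 0.895), with an adjusted p of 0.0130 in edgeR's quasi-likelihood test. The call was lost without heart WT_Young-39, where the log2 difference was -0.27 (adjusted p = 0.0675), and when only the WT hearts entered the fit (-0.36, adjusted p = 0.0505). In KO hearts the ageing difference was 0.21 ± 0.10 (adjusted p = 0.259). The difference between these ageing differences was 0.58 ± 0.15, with an adjusted p of 0.0850 by edgeR and 0.0185 by DESeq2, so the call depended on the tool. Cacnb2 was 0.30 ± 0.10 higher in aged KO than in aged WT hearts (adjusted p = 0.231) and 0.28 ± 0.10 lower in young KO than in young WT hearts (log2 difference -0.28, adjusted p = 0.313), neither past the threshold.

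The counts add up all transcripts of a gene, and RefSeq lists Cacnb2 transcripts from separate starts, so the levels above cannot be assigned to either. The 250 bases before each of these starts are shown because they differ in composition (RefSeq, build GRCm38.p6, both on the plus strand of chromosome 2), with a match to a searched motif in capitals.
Cacnb2 upstream start, chr2:14604056-14604305: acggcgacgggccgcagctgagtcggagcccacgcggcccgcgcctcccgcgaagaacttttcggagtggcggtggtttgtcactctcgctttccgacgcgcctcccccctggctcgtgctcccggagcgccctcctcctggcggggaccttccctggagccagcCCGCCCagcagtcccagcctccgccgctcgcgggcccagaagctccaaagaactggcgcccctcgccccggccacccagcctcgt
Cacnb2 downstream start, chr2:14823842-14824091: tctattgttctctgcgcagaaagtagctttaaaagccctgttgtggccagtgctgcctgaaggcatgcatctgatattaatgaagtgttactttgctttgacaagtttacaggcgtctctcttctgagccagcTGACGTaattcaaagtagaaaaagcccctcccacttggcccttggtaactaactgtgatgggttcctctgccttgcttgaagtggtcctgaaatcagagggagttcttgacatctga
Both strands were searched for the TATA box TATAAA, for the E-box CACGTG, for the GC box GGGCGG and for the cAMP response element core TGACGT, and no printed matches overlap. The upstream window was 73.2% G and C and held GGGCGG once, on the minus strand, so it reads CCGCCC as printed. The downstream window was 46.0% G and C and held TGACGT once. Among 32851 such windows the median G and C content was 52.4%, and 12.4% held TATAAA, 6.02% CACGTG, 32.7% GGGCGG and 6.47% TGACGT. A match describes the letters of the window and is not a measured binding site.

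Set against the subunit that its product binds, Rrad was lowest in young WT hearts. The ratio of Rrad to Cacnb2, both in FPKM, averaged 4.89 ± 0.345 in aged KO hearts, 4.72 ± 0.447 in aged WT hearts, 5.20 ± 0.988 in young KO hearts and 2.30 ± 0.424 in young WT hearts (SD, n = 4 each). The highest young WT heart, at 2.72, lay below the lowest of the other 12 hearts, at 4.15. The ratio of Rrad to the pore gene Cacna1c did not separate the groups in this way. It averaged 5.17 ± 0.602 in aged KO, 4.13 ± 1.16 in aged WT, 4.62 ± 0.866 in young KO and 2.92 ± 0.903 in young WT hearts (SD, n = 4 each). Young WT hearts, at 2.09 to 3.97, overlapped aged WT hearts, at 3.16 to 5.81, and young KO hearts, at 3.38 to 5.40. Both ratios rest on Rrad and are given without a test.

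**Figure D2:**
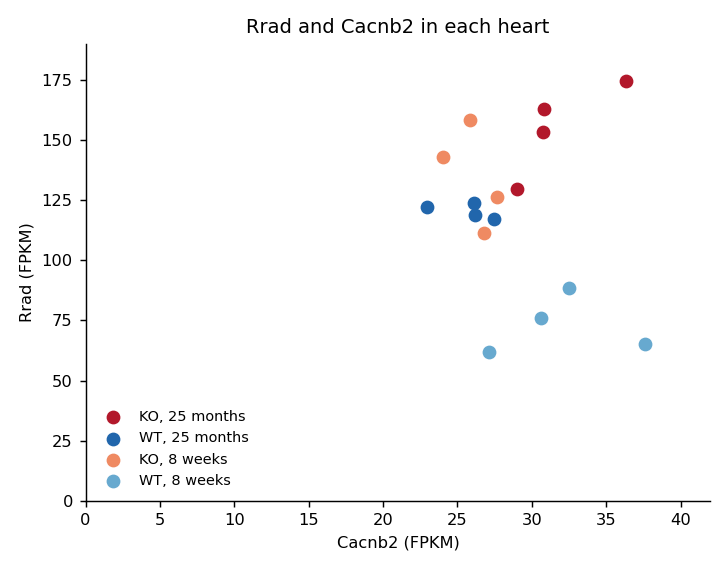
FPKM of Rrad (vertical axis) against FPKM of Cacnb2 (horizontal axis), 1 point per heart, coloured by group. The 4 young WT hearts stand apart at a lower Rrad level for their Cacnb2 level, with ratios between 1.73 and 2.72.

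The pore gene Cacna1c averaged 380 ± 7.60 CPM in aged KO hearts and 387 ± 96.1 CPM in aged WT hearts, and 387 ± 38.03 CPM in young KO hearts and 345 ± 72.7 CPM in young WT hearts (SD, n = 4 each). No comparison passed the test, and the 95% intervals of its fold differences reached from 0.781 to 1.24 between aged KO and WT hearts and from 0.891 to 1.41 between young KO and WT hearts. In aged WT hearts it ran from 261 CPM in heart WT_Aged-1 to 489 CPM in heart WT_Aged-5. Young WT hearts ran from 248 CPM in heart WT_Young-29 to 424 CPM in heart WT_Young-39.

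Cacna2d1, the α2δ subunit that helps to carry the channel to the surface, had the narrowest range of CPM among the 10 genes, its highest level being 1.30 times its lowest. It averaged 555 ± 19.8 CPM in aged KO hearts and 548 ± 45.4 CPM in aged WT hearts, and 554 ± 46.1 CPM in young KO hearts and 601 ± 53.8 CPM in young WT hearts (SD, n = 4 each). Its log2 differences ran from -0.13 to 0.02 over the comparisons, with no adjusted p below 0.286. Cacna2d1 counts were fractional in all 16 hearts, so reads may have been shared with another gene, while the other 9 genes had whole counts throughout.

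**Figure D3:**
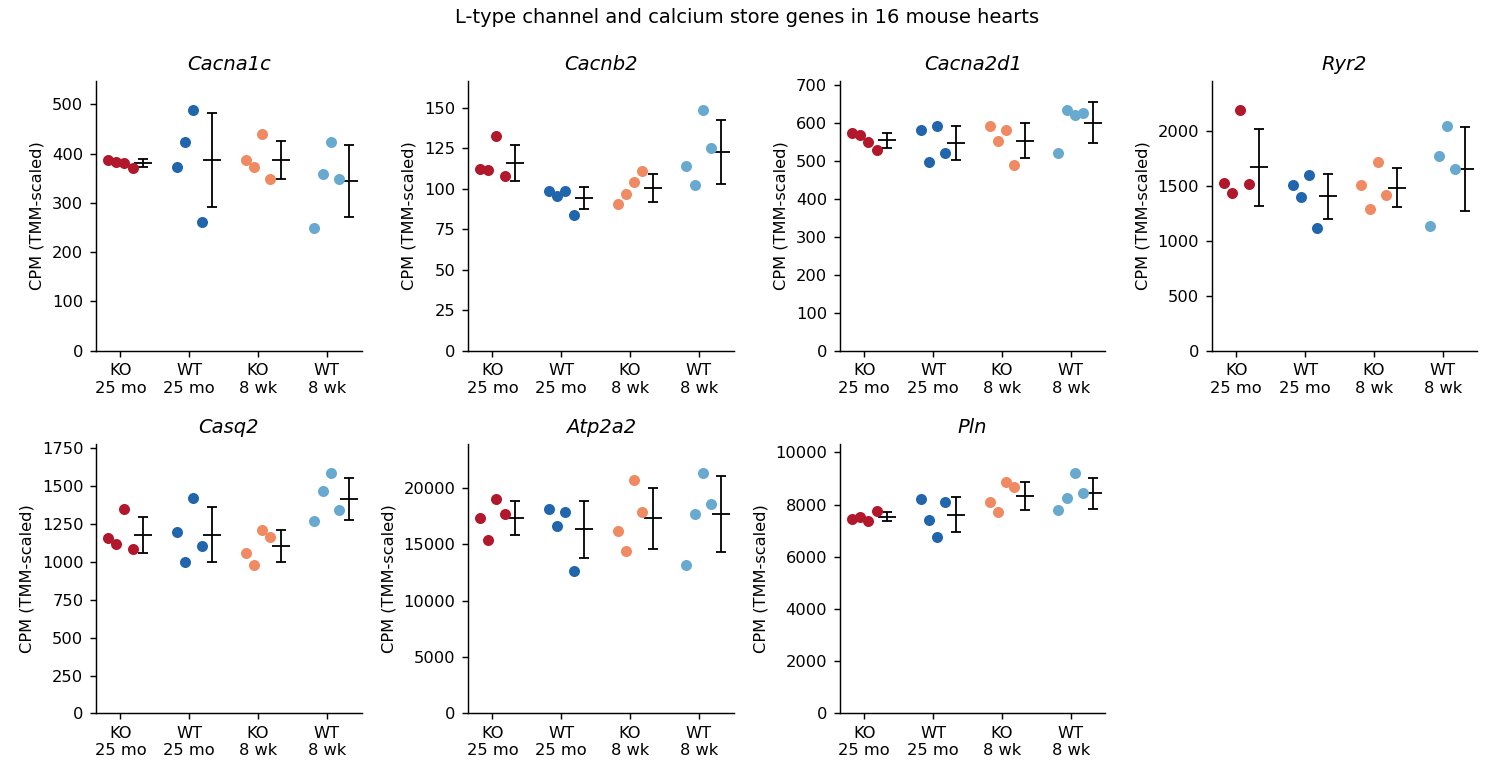
CPM of the 3 channel subunit genes, the release genes Ryr2 and Casq2 and the uptake genes Atp2a2 and Pln (vertical axes, each from 0) in every heart, with the mean and SD of 4 hearts beside the points. Aged WT hearts lie below young WT hearts in Cacnb2 without overlap, and hearts WT_Aged-1 and WT_Young-29 are the lowest of their groups in Cacna1c, Ryr2 and Atp2a2.

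Ryr2, the release channel, had 1527, 1434, 2188 and 1517 CPM in aged KO hearts, against 1503, 1394, 1594 and 1113 CPM in aged WT hearts. Young KO hearts had 1507, 1290.0, 1716 and 1413 CPM, against 1135, 1772, 2039 and 1650.1 CPM in young WT hearts. The groups overlapped at both ages and along age, and heart KO_Aged-122 stood highest of all. The log2 difference between aged KO and WT hearts was 0.25 (95% interval -0.10 to 0.60, adjusted p = 0.643 by edgeR), and between young KO and WT hearts it was -0.15 (-0.50 to 0.19, adjusted p = 0.770).

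Casq2, the calcium buffer inside the store, was lowest in young KO hearts relative to their controls. It had 1060.3, 981, 1210 and 1166 CPM in young KO hearts, against 1272, 1466, 1589 and 1339 CPM in young WT hearts, without overlap. The log2 difference was -0.36 ± 0.11, with an unadjusted p of 0.00327 and an adjusted p of 0.189 by edgeR, which did not pass the threshold. In aged hearts Casq2 averaged 1177 ± 119 CPM in KO animals and 1179 ± 180 CPM in WT animals (SD, n = 4 each). Between aged and young WT hearts its log2 difference was -0.26 ± 0.11 (adjusted p = 0.0827). Without heart WT_Aged-5, the highest aged WT heart at 1420 CPM, that difference was -0.37 and passed the test (adjusted p = 0.0166).

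The uptake genes were the most abundant of the set per length, and neither passed the test in any comparison. Atp2a2 averaged 17357 ± 1505 CPM in aged KO hearts and 16334 ± 2537 CPM in aged WT hearts, and 17304 ± 2684 CPM in young KO hearts and 17700 ± 3403 CPM in young WT hearts (SD, n = 4 each). The 95% intervals of its fold differences reached from 0.869 to 1.30 between aged KO and WT hearts and from 0.799 to 1.20 between young KO and WT hearts. With age its log2 difference was 0.00 in KO hearts and -0.12 in WT hearts (adjusted p = 0.992 and 0.592 by edgeR). Pln, whose product restrains the pump, averaged 7531 ± 170 CPM in aged KO hearts and 7615 ± 676 CPM in aged WT hearts, and 8339 ± 535 CPM in young KO hearts and 8433 ± 591 CPM in young WT hearts (SD, n = 4 each). It was 0.989-fold in KO relative to WT hearts at both ages, with intervals of 0.881 to 1.11 at each. With age Pln differed by -0.15 on the log2 scale in WT and in KO hearts, with adjusted p of 0.197 and 0.299 by edgeR.

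The balance of phospholamban to pump, taken as the ratio of their FPKM values in each heart, was 0.847 ± 0.0808 in aged KO hearts and 0.929 ± 0.216 in aged WT hearts, and 0.945 ± 0.0868 in young KO hearts and 0.945 ± 0.142 in young WT hearts (SD, n = 4 each). None of the 4 comparisons passed an exact two-sided permutation test, in which 0.0286 is the smallest p that 4 against 4 hearts can give. The exact p was 0.600 between aged KO and WT hearts, 0.971 between young KO and WT hearts, 0.8286 between aged and young WT hearts and 0.229 between aged and young KO hearts. Adjusted over the 4 comparisons, the lowest was 0.914.

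Hearts WT_Aged-1 and WT_Young-29 were the lowest of their groups in Cacna1c, Ryr2 and Atp2a2 together. Across genes, the rank correlation between a heart's deviation from its group and gene length was -0.26 in WT_Aged-1 and -0.33 in WT_Young-29, within a range of -0.38 to 0.34 over the 16 hearts, so long genes tended to run low in both. Heart KO_Young-53, at -0.38, was the lowest of its group in Cacna1c and Cacna2d1 but not in Ryr2 or Atp2a2. Without WT_Aged-1 and WT_Young-29, the log2 difference between young KO and WT hearts was -0.29 for Ryr2 (adjusted p = 0.315) and 0.04 for Cacna1c (adjusted p = 0.866), and none of the calls on the 10 genes changed. The part of gene length in these levels was not tested.

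Taken over the 16 hearts, those high for their group in the pump tended to be high in the release channel and the pore. After subtracting group means, log2 CPM of Ryr2 and Atp2a2 had a Pearson r of 0.89 over 16 hearts, Cacna1c and Atp2a2 0.80, and Cacna1c and Ryr2 0.77. Hearts WT_Aged-1 and WT_Young-29, the lowest of their groups in these genes, enter all of these values. Not every group showed the pattern for the pore. Heart KO_Aged-122, the highest aged KO heart in Atp2a2 (0.14 above its group mean), lay at 0.001 in Cacna1c. The lowest values were -0.70 for Rem1 and Pln and -0.67 for Gem and Atp2a2. Rrad had r of -0.14 with Cacna1c, 0.19 with Cacnb2, 0.37 with Rem1 and 0.13 with Gem. These describe 45 pairs of genes read in the same libraries, whose depth and RNA quality they share, and carry no p.

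In counts, 0 of the 10 genes differed between aged KO and WT hearts at an adjusted p under 0.05 in edgeR, against 0.875% of all genes tested. Between young KO and WT hearts it was 1 of 10, Rrad, against 0.269%. Between aged and young WT hearts 2 of 10 differed, Rrad and Cacnb2, against 21.7% of all genes. Between aged and young KO hearts 0 of 10 differed, against 7.63%, and 0 of 10 differed in their ageing change between genotypes, against 0.464%. Rrad's entries in these counts follow from its choice, and nothing is read from them.

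Among the 9 genes other than Rrad, unadjusted p under 0.05 occurred for 1 gene between aged genotypes, 2 between young genotypes, 2 with age in WT hearts, 0 with age in KO hearts and 2 in the difference of ageing changes. Over all 13373 genes tested, the same was true of 1454, 1467, 4679, 2914 and 1637 genes in those comparisons, in that order. DESeq2 and limma called 0 of the 10 between aged genotypes and with age in KO hearts. Hearts of the groups did not overlap for 2 of 10 genes between aged KO and WT hearts (Rrad and Cacnb2), against 5.04% of all genes, and for 2 of 10 between young KO and WT hearts (Rrad and Casq2), against 8.49%. With age they did not overlap for 2 of 10 in WT hearts (Rrad and Cacnb2), against 21.7%, and for 0 of 10 in KO hearts, against 15.7%. Rrad's entries in these counts of overlap also follow from its choice. The comparisons share hearts, since each group enters a genotype and an age comparison.

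**Figure D4:**
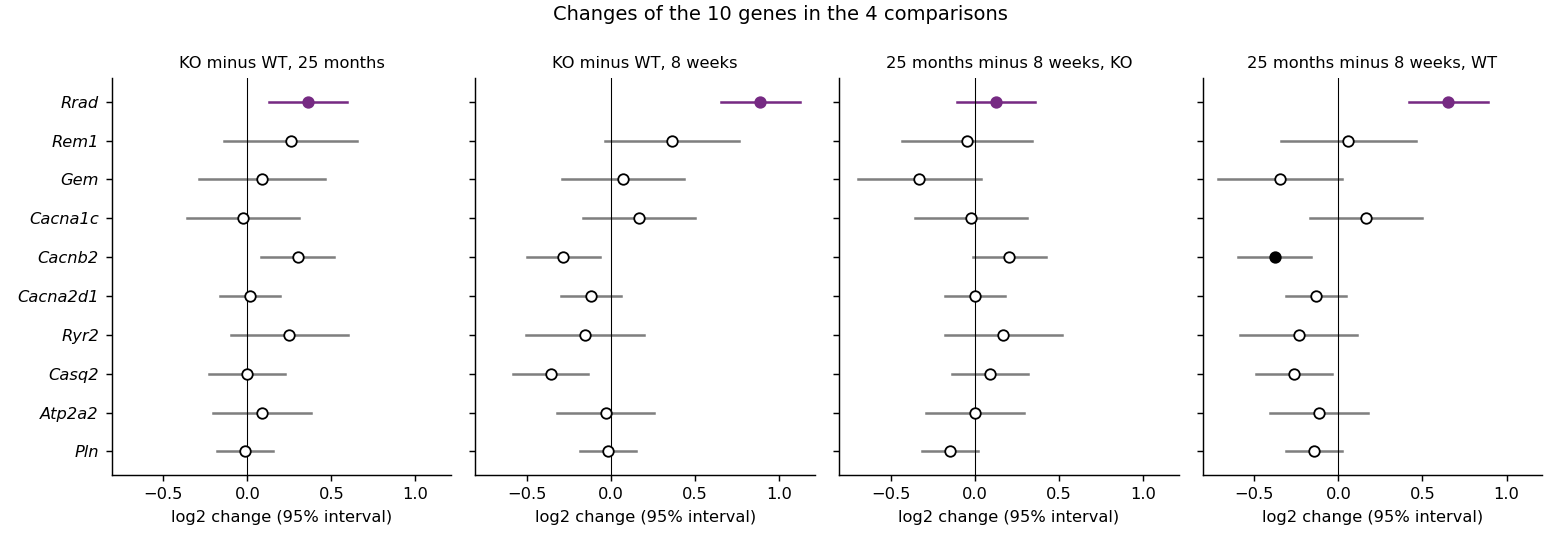
Log2 differences (horizontal axes) with 95% intervals for the 10 genes in the 4 comparisons, KO minus WT or 25 months minus 8 weeks as headed. Purple marks Rrad, given as a description, the filled black point is Cacnb2, which fell with age in WT hearts (adjusted p 0.0130), and open points did not pass the test.

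On the length-scaled FPKM scale, which allows levels to be set across genes, the 10 genes were ordered by their medians. The medians over 16 hearts were 4331 for Atp2a2, 3830.0 for Pln, 516 for Casq2, 123 for Rrad, 93.2 for Ryr2, 66.6 for Cacna2d1, 29.6 for Cacna1c, 27.6 for Cacnb2, 3.75 for Rem1 and 2.86 for Gem. The ranges over hearts overlapped for the neighbours Atp2a2 and Pln, Rrad and Ryr2, Ryr2 and Cacna2d1, Cacna1c and Cacnb2, and Rem1 and Gem, and also for Rrad (61.8 to 175 FPKM) and Cacna2d1 (58.8 to 74.4 FPKM). Of the 10, Rrad had the widest range over the 16 hearts, its highest CPM being 2.73 times its lowest. That range takes in the group differences known when Rrad was chosen. Within groups its SD of log2 CPM was 0.17, in a span from 0.096 for Pln to 0.28 for Rem1.

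Genes whose pattern over the 16 hearts was most like that of Rrad, by Pearson r of log2 CPM, were Sox4 (0.86), Tkt (0.85), Art5 (0.84) and Ttc12 (0.84). Sox4, a transcription factor gene, averaged 26.1 CPM in aged KO hearts, 19.5 in aged WT hearts, 22.3 in young KO hearts and 12.9 in young WT hearts. Tkt, which encodes transketolase of the pentose phosphate pathway, averaged 37.5 CPM in aged KO hearts, 37.3 in aged WT hearts, 35.5 in young KO hearts and 25.5 in young WT hearts. Each of these 4 had its lowest group mean in young WT hearts, which the search for likeness favours. After subtracting group means the most alike were other genes, Dhrs7 (0.82), Ephx3 (0.79), Faf2 (0.77), Bcl3 (0.76) and Ddx41 (0.75), and the lists shared no gene.

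Beyond the 10 genes, further calcium-handling genes were listed in 8 groups by role, of which 102 passed the filter on low counts and were tested and 12 were not. Between aged KO and WT hearts 0 of the 102 passed edgeR's test (12 at an unadjusted p under 0.05), and between young KO and WT hearts 0 passed (15 unadjusted), where 1454 and 1467 of all 13373 genes had such an unadjusted p. DESeq2 called 2 in each, Cacna1g and Sln in aged hearts and Atp1b1 and Cacng6 in young hearts. In young hearts edgeR also called Atp1b1 when only those 2 groups were fitted or heart KO_Aged-122 was left out, and Atp1b1 and Cacng6 without heart WT_Aged-1. In aged hearts it called Cacna1g without heart KO_Aged-114. Sln, which is also on the atrial marker list, had a mean and SD of 5.37 ± 8.12 CPM over the 4 aged KO hearts and 0.0391 ± 0.0452 CPM over the 4 aged WT hearts. Their median log2 difference was 0.05 in aged and -0.06 in young hearts, beside medians of 0.00 over all genes. The ageing change differed between genotypes for 0 of 102 genes (15 unadjusted, against 1637 of all genes, and 0 by DESeq2).

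With age in WT hearts, 28 of the 102 genes passed the test, 8 higher and 20 lower, which is 27.5% against 21.7% of all genes, and their median log2 difference was -0.11 beside -0.01 over all genes. With total counts as the only scaling 11 were higher and 10 lower, so the split by direction depends on the scaling. In KO hearts 10 passed, 7 higher and 3 lower, which is 9.8% against 7.63%, with a median of -0.04 beside -0.01. The counts by role given below stand beside the same shares of all genes, 21.7% in WT and 7.63% in KO hearts. Red cell markers summed to 1021 to 2209 CPM in aged WT hearts, against 527 to 715 CPM in young WT hearts, and 5 of 5 were called higher in aged WT hearts, without overlap. In KO hearts their sum was 897 to 1837 CPM in aged and 616 to 1078 CPM in young animals. Smooth muscle markers summed to 237 to 349 CPM in aged WT hearts and 371 to 627 CPM in young WT hearts, and to 264 to 385 CPM in aged KO hearts and 345 to 395 CPM in young KO hearts. Of 9 ventricular cardiomyocyte markers, 4 were called lower and 0 higher with age in WT hearts, and 1 lower in KO hearts. The 4 were Actc1, Myh6, Ttn and Mybpc3 (log2 differences of -0.56, -0.40, -0.39 and -0.34). Over the 9 markers the median log2 difference was -0.05 in WT hearts. The part of these cell types in the ageing changes was not tested. The WT count fell to 16 without heart WT_Young-34 and to 18 without heart WT_Young-39. The KO count was 5 without heart KO_Aged-115, KO_Aged-122 or KO_Aged-125 and 6 without heart KO_Young-27 or KO_Young-53.

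Of 12 other calcium channel genes tested, 2 rose with age in WT hearts and 2 in KO hearts. Cacng6, a γ subunit of the channel, averaged 4.05 ± 1.51 CPM in aged WT hearts and 1.87 ± 0.565 CPM in young WT hearts (SD, n = 4 each), a log2 change of 1.11 ± 0.27 (adjusted p = 0.00549 by edgeR). Cacna2d3, another α2δ gene, rose by 1.37 ± 0.33 in aged relative to young KO hearts and by 1.04 ± 0.36 in WT hearts, at group means of 0.499 to 1.58 CPM. Cacna2d2, of the same family, rose by 1.16 ± 0.34 in KO hearts (adjusted p = 0.0480). Leaving out heart KO_Aged-122 ended the Cacna2d3 call in KO hearts (adjusted p = 0.0592). In WT hearts that call was lost when WT_Aged-4, WT_Aged-5, WT_Aged-12, WT_Young-29, WT_Young-34 or WT_Young-42 was left out (adjusted p = 0.0505 to 0.163) and when WT_Aged-1 and WT_Young-29 were both left out (0.0601). It was also lost with DESeq2 (adjusted p = 0.0750), without the filter on low counts (0.0617), and in limma on log2(FPKM + 1) and log2(FPKM + 0.1) (0.136 and 0.0685). The Cacna2d2 call was lost when KO_Aged-115, KO_Aged-122, KO_Aged-125, KO_Young-27, KO_Young-31 or KO_Young-53 was left out (adjusted p = 0.0531 to 0.163). It was also lost without the filter on low counts and when only the KO hearts were fitted.

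Among 18 other genes of calcium release and storage, 7 fell and 1 rose with age in WT hearts, and 1 rose in KO hearts. Srl, the luminal calcium-binding protein sarcalumenin, averaged 1045 ± 122.5 CPM in aged WT hearts and 1513 ± 149 CPM in young WT hearts (SD, n = 4 each), a log2 change of -0.53 ± 0.12 (adjusted p = 0.00283 by edgeR). Asph, whose locus also makes the release-complex protein junctin, fell by 0.29 on the log2 scale (adjusted p = 0.00749). The junctional and luminal genes Jph2 and Hrc, the receptor-binding gene Fkbp1a and the receptor gene Itpr1 fell too, by 0.39, 0.30, 0.28 and 0.29, but none of these 4 was called with total counts as the only scaling. These named falls were seen in WT hearts, and 0 of the 18 genes had an ageing change that differed between genotypes past the threshold.

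Of the skeletal-type isoforms, Casq1 was among the 7 that fell and Ryr1 was the 1 that rose in WT hearts. Casq1, the skeletal calsequestrin, averaged 2.09 ± 0.469 CPM in aged WT hearts and 13.8 ± 1.33 CPM in young WT hearts (SD, n = 4 each), a log2 change of -2.72 ± 0.46 (adjusted p = 8.09e-04 by edgeR). Ryr1, the skeletal ryanodine receptor, rose by 1.72 ± 0.41 in WT and by 1.91 ± 0.44 in KO hearts, at group means of 0.501 to 2.20 CPM, and was not called by limma on log2(FPKM + 1), which compresses low values (adjusted p = 0.0734 in WT and 0.162 in KO hearts). The summed level of 9 skeletal muscle markers, a list that holds Casq1 and Ryr1, was 6.57 to 9.20 CPM in aged WT hearts and 17.2 to 18.3 CPM in young WT hearts, and 6.80 to 16.9 CPM in aged KO hearts and 12.0 to 24.5 CPM in young KO hearts. Casq1 itself, at a mean of 13.8 CPM, made up most of the sum in young WT hearts, so the sum is not separate from the Casq1 fall. Of the 5 of these markers tested, 3 had a positive log2 difference with age in WT hearts and 4 in KO hearts. The part of skeletal muscle cells in these changes was not tested.

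Of 4 other genes of calcium uptake tested, 2 rose with age in both genotypes. Strit1, which encodes the pump-activating micropeptide DWORF, averaged 14.3 ± 3.37 CPM in aged KO hearts and 7.13 ± 1.30 CPM in young KO hearts, and 13.0 ± 3.36 CPM in aged WT hearts and 7.82 ± 1.25 CPM in young WT hearts (SD, n = 4 each). Its log2 changes were 1.004 ± 0.20 in KO and 0.74 ± 0.20 in WT hearts (adjusted p = 0.00358 and 0.0114 by edgeR). Atp2a3, a pump isoform known from blood and endothelial cells, rose by 0.50 ± 0.13 in KO and 0.67 ± 0.13 in WT hearts. The KO call for Atp2a3 was lost without heart KO_Aged-125 (adjusted p = 0.0799) or heart KO_Young-53 (adjusted p = 0.0730). The summed level of 6 macrophage markers was 274 to 298 CPM in aged KO hearts and 159 to 193 in young KO hearts, and 367 to 532 CPM in aged WT hearts and 132 to 180.4 in young WT hearts, and its part in the Atp2a3 change was not tested.

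Of 11 genes of calcium extrusion and the sodium pump, 2 rose and 3 fell with age in WT hearts and 2 rose in KO hearts. Atp2b4, a plasma membrane calcium pump, averaged 27.7 ± 3.12 CPM in aged WT hearts and 41.3 ± 1.75 CPM in young WT hearts (SD, n = 4 each), a log2 change of -0.58 ± 0.09 (adjusted p = 1.36e-04 by edgeR). Atp2b2, of the same family, rose in both genotypes, by 1.56 ± 0.36 in KO and 1.35 ± 0.39 in WT hearts, at mean levels of 0.622 to 2.34 CPM. The Atp2b2 call was lost without WT_Young-34 in WT hearts (adjusted p = 0.0616) and without KO_Aged-122 in KO hearts (adjusted p = 0.0521). The WT call was also lost in limma on log2(FPKM + 1) (adjusted p = 0.107).

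For 9 genes of mitochondrial calcium handling, 1 rose and 1 fell with age in WT hearts. Mcub, a subunit that lowers uniporter activity, averaged 3.99 ± 1.15 CPM in aged WT hearts and 1.64 ± 0.530 CPM in young WT hearts, and the pore gene Mcu 21.5 ± 1.52 CPM in aged WT hearts and 29.3 ± 2.93 CPM in young WT hearts (SD, n = 4 each). The log2 change was 1.27 ± 0.24 for Mcub (adjusted p = 6.54e-04 by edgeR) and -0.45 ± 0.09 for Mcu (adjusted p = 8.96e-04). In KO hearts the log2 differences were 0.48 for Mcub and -0.23 for Mcu, and neither passed. Of 7 genes of store-operated entry, 0 passed in WT or KO hearts.

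In the adrenergic, protein kinase A and CaM kinase group, 7 of 26 genes fell with age in WT hearts and 2 in KO hearts, and 0 rose. These counts depend on the scaling. With total counts as the only scaling, Adcy5, Camk2d and Camk2g alone were called lower in WT hearts, and Camk2b was called higher. In KO hearts Camk2g alone stayed called. Adcy5, a cardiac adenylyl cyclase, averaged 69.2 ± 15.99 CPM in aged WT hearts and 102 ± 12.1 CPM in young WT hearts (SD, n = 4 each), a log2 change of -0.56 ± 0.14 (adjusted p = 0.00648 by edgeR). The kinase genes Camk2g and Camk2d fell in both genotypes, Camk2g by 0.37 in KO and 0.33 in WT hearts and Camk2d by 0.34 in each. Prkacb, a catalytic subunit of protein kinase A, fell by 0.26 in WT hearts. In KO hearts the Camk2g call was lost without KO_Aged-115 (adjusted p = 0.0621) or KO_Young-27 (adjusted p = 0.0555). The KO call for Camk2d was lost when KO_Aged-115, KO_Aged-122, KO_Aged-125, KO_Young-27, KO_Young-38 or KO_Young-53 was left out (adjusted p = 0.0626 to 0.128). In WT hearts the Camk2d call was lost without WT_Aged-4, WT_Young-39 or WT_Young-42 (adjusted p = 0.0539 to 0.0705), and the Prkacb call without WT_Aged-5, WT_Young-34 or WT_Young-39 (adjusted p = 0.0543 to 0.0730). Fitting only the WT hearts ended the WT calls of Camk2g (adjusted p = 0.0696), Camk2d and Prkacb. Both limma fits ended the KO calls of Camk2g and Camk2d and the WT call of Prkacb.

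In the calcineurin, NFAT and MEF2 group, 2 of 15 genes fell with age in WT hearts and 1 in KO hearts. Hdac9, a histone deacetylase gene whose product represses MEF2 factors, averaged 25.2 ± 2.89 CPM in aged WT hearts and 34.8 ± 3.01 CPM in young WT hearts (SD, n = 4 each), a log2 change of -0.47 ± 0.10 (adjusted p = 0.00264 by edgeR). It fell by 0.37 in KO hearts, and Mef2a fell by 0.27 in WT hearts. The KO call for Hdac9 was lost when KO_Aged-115, KO_Aged-122, KO_Aged-125 or KO_Young-38 was left out (adjusted p = 0.0507 to 0.114). It was also lost with total counts as the only scaling and in both limma fits. The Mef2a call was lost when WT_Aged-1, WT_Aged-4, WT_Aged-5, WT_Young-34, WT_Young-39 or WT_Young-42 was left out (adjusted p = 0.0645 to 0.129). Fitting only the WT hearts, scaling by total counts only and both limma fits ended the Mef2a call too.

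**Figure D5:**
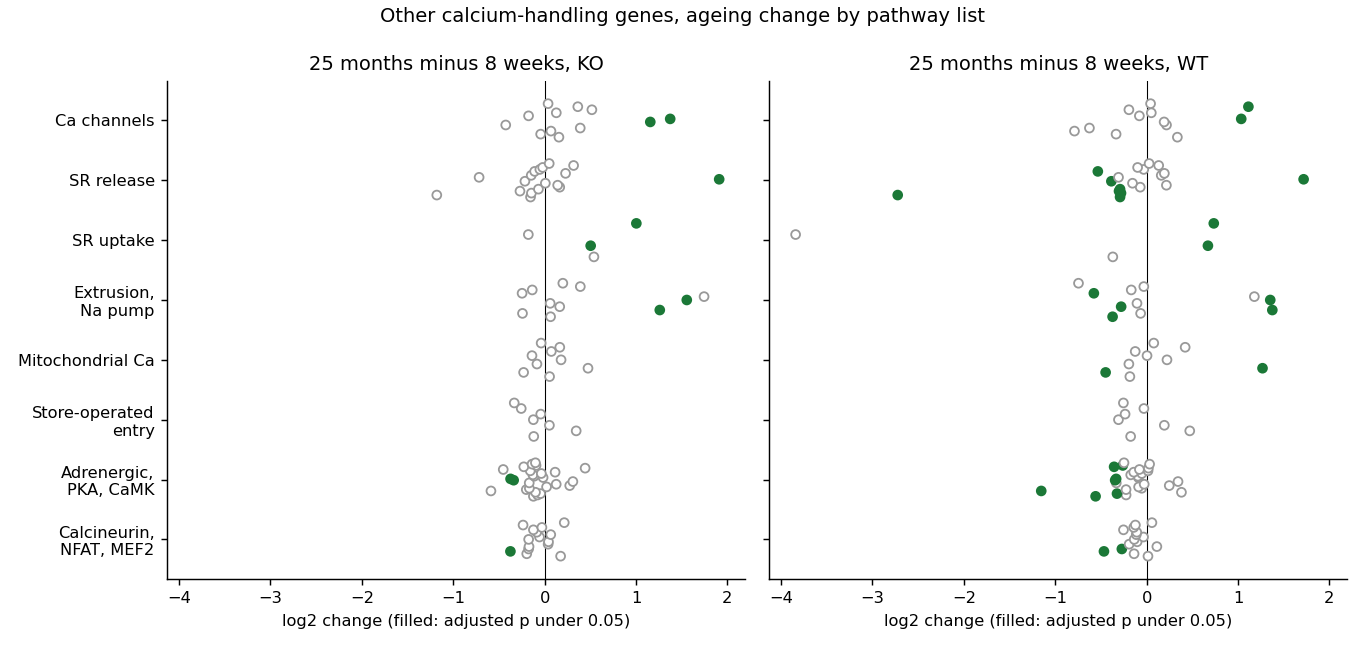
Log2 differences with age (horizontal axes, 25 months minus 8 weeks) of the 102 tested calcium-handling genes other than the 10, by role, in KO hearts (left) and WT hearts (right), 1 point per gene. Filled points passed the test at an adjusted p under 0.05, 10 in KO and 28 in WT hearts.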

How the data were processed

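Per gene, the deposited values were expected counts and, in a separate table, FPKM, which the authors had scaled to depth and transcript length. The submitters' processing notes name HISAT, Bowtie2 and GRCm39 with no roles, and no source used here names the counter. Of the genes in a library 9.57% to 10.5% had a count that was not whole (tolerance 1e-09). These values were rounded for the tests. All 16 libraries entered 1 edgeR 4.0.16 quasi-likelihood fit of 4 groups (R 4.3.3, filterByExpr, TMM, 12 residual degrees of freedom, Benjamini-Hochberg over 13373 genes, threshold 0.05), first checked on simulated data. Changes are log2 values with standard errors and levels are CPM. DESeq2 1.42.0 and limma 3.58.1 on log2(FPKM + 1) and log2(FPKM + 0.1) were alternatives.

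The submitters describe the hearts as independent replicates, and no pair agreed within sampling noise (lowest chi-square per degree of freedom 3.67). No animal number is shared between groups, and the labels give no batch or date. The young WT hearts are titled WO, and their genotype label was followed. The 10 genes and the lists were chosen with earlier results of these data known. From each of the 8 role groups up to 4 genes were named, those with the smallest adjusted p among called genes, and Jph2, Hrc, Fkbp1a, Itpr1, Cacna1g, Sln and Atp1b1 were added after their values were seen. A few genes that these rules name are not reported here. Likeness to Rrad was searched over tested genes with a mean of at least 1 CPM, taking 5 genes per measure (log2 CPM, prior count 2). Sequences are RefSeq's (GRCm38.p6), in which 7 of the 10 genes had an entry. Marker sums not printed elsewhere were 764 to 1237 CPM for endothelial cells and 858 to 1643 for fibroblasts over all hearts.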

Additional observations from a re-analysis of the deposited data

Results flagged for a closer look

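In 40 sets of 4 hearts (10 genes in 4 groups), 2 held a heart whose gap to the nearest of the others, as a share of the set's range, was above Dixon's 95% critical value, and chance gives about 1 in 20. Ryr2 was 2188 CPM in heart KO_Aged-122, with the other aged KO hearts at 1434 to 1527 CPM (share 0.877). Cacna2d1 was 520.3 CPM in heart WT_Young-29, with the other young WT hearts at 622 to 634 CPM (share 0.888).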

How the results depend on the processing

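No called value changed sign under the alternatives run. Counted once per gene, comparison and alternative fit, 1260 single-gene results kept their side of the threshold, 86 lost and 2 gained a call. The 1260 include results not called in the main fit, which could not lose a call. They therefore do not measure how stable the calls are. The number of genes called between aged KO and WT hearts (117) was 261 with DESeq2, 17 with only those groups fitted, 76 with limma on log2(FPKM + 0.1), 52 without both hearts WT_Aged-1 and WT_Young-29 (chosen after seeing the data), and 31 to 251 with 1 heart left out. Between young KO and WT hearts (36) it was 148 with DESeq2, 135 with only those groups, 16 with limma on log2(FPKM + 1) and 4 to 21 with 1 heart left out. For the difference of ageing changes (62) it was 218 with DESeq2, 32 without both those hearts and 25 to 171 with 1 heart left out. With age in KO hearts (1020) it was 644 to 875 with 1 heart left out. Of the 10 genes, the 2 called with age in WT hearts were 1 with only the WT groups and 1 to 3 with 1 heart left out, and the 0 called in the difference of ageing changes was 1 with DESeq2, Cacnb2. Apart from the fits with fewer hearts, the cause of these shifts was not tested. Genes higher with age made up 54.3% of calls in WT and 65.9% in KO hearts, against 71.6% and 83.2% with total counts as the only scaling. No paired analysis was possible because no replicate number occurs in more than 1 group. With 36 to 101 counts per heart, Rem1 and Gem were measured least precisely.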
